A study of Mus musculus with 12 samples.

Results

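The genes described are Myc and 34 genes of polyamine and ribosome production, taken by name from a list of 35. All 35 had probe sets naming them alone, and all 35 passed the filter on dim probe sets, out of 22296 genes so named on the array and 20711 that passed the filter. Of their 838 probe sets, each measuring part of a gene, 808 passed, with 2 (Fbl) to 67 (Utp20) per gene and a median of 21. Nol5 is the array's name for Nop58, and Nop56 stands on it as Nol5a.

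All 12 arrays measured RNA of primary bone marrow cultures from female C57B/6 mice, which were 12 weeks old and had received 5-fluorouracil (5-FU), a drug that spares quiescent progenitors. Every culture carried MSCV retroviral vectors and overexpressed HOXA9, a homeobox gene that keeps myeloid progenitors growing, in DMEM with 15% FCS and the cytokines IL3, SCF and IL6. HOXA9+MEIS1 cultures also received MEIS1, a homeobox partner of HOXA9. HOXA9+MDHD cultures received a MEIS1 from which the DNA-binding homeodomain had been deleted, and HOXA9+MIY cultures the empty MIY vector. Meis1 averaged log2 9.38 in HOXA9+MEIS1, 9.15 in HOXA9+MDHD and 6.80 in HOXA9+MIY. Each condition had 4 arrays, 2 at week 4 and 2 at week 3 of culture. The series describes 4 independent experiments per condition. It does not say whether week 4 and week 3 arrays came from the same cultures, and the tests treat all arrays as independent samples. Nor does it say whether arrays of both weeks were processed together, so week of culture and any difference in array processing cannot be told apart. In bulk cultures, fewer cells of a type and less RNA per cell cannot be told apart either.

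Myc is a transcription factor that pairs with Max at E-box sequences and is known for raising genes of nucleotide, polyamine and ribosome production in growing cells. Ribosomes start in the nucleolus, where RNA polymerase I makes 1 long precursor RNA. Small nucleolar ribonucleoproteins (snoRNPs) modify this precursor, and separate sets of assembly factors shape the small (40S) and large (60S) subunits. In marrow, cycling myeloid progenitors are known for large nucleoli, which shrink as neutrophils mature.

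Sequence upstream of the start site was read from RefSeq's table (GRCm38.p6), which matched 27 of the 35 genes with 35 start sites. It is shown for the 4 genes with the largest week differences and for Nop2, added after the search as the gene with an E-box match, 250 bases before the start on the gene's own strand. Capitals mark the E-box CACGTG, which reads the same on both strands, and the GC box GGGCGG or, on the other strand, CCGCCC.
Nol5 (chr1:59684756-59685005, + strand): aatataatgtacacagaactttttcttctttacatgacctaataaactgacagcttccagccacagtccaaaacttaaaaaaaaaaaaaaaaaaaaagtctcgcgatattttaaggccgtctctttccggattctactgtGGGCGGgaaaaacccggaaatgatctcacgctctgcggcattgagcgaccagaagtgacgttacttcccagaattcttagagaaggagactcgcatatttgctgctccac
Gnl3 (chr14:31019132-31019381, - strand): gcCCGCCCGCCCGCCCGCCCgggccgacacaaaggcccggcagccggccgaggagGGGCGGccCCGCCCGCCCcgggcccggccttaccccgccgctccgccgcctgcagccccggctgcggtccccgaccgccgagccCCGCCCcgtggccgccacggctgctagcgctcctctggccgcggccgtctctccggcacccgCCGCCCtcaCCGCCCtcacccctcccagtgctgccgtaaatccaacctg
Odc1 (chr12:17544623-17544872, + strand): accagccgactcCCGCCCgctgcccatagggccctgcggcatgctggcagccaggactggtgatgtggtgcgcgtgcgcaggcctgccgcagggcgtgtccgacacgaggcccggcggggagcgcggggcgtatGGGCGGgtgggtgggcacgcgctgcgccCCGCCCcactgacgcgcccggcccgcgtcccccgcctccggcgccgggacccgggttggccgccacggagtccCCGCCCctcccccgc
Nop56 (chr2:130274162-130274411, + strand): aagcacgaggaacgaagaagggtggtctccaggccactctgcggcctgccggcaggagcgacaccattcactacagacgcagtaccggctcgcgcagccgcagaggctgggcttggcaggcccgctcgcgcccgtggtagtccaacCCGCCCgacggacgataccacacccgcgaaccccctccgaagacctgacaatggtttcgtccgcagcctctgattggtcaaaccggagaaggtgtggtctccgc
Nop2 (chr6:125131633-125131882, + strand): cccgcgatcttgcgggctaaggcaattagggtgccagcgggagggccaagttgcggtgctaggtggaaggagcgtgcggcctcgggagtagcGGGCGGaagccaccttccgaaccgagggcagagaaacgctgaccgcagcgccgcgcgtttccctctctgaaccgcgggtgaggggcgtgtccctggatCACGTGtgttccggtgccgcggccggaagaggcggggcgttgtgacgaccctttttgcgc
CACGTG was found in 1 of the 35 windows (2.9%), in Nop2 at 60 bases before the start, against 6.0% of the 32851 windows in the table. The GC box was found in 25 of the 35 windows (71.4%), against 32.7% of all windows in the table. Neighbouring GC boxes can overlap, as in Gnl3, and windows of a gene with several start sites can share bases. The shares count windows, not genes, so a gene with several start sites, such as Ubtf, counts more than once. The table also holds genes that did not pass the filter here. Only these 250 bases were searched, so E-boxes elsewhere, as after the start, were not counted. Both shares are descriptions of these letters only. Sequences for the 8 other genes, Myc among them, were not used here.

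The first comparison sets week 4 against week 3 of culture over all conditions. Of the 35 genes, 34 were lower at week 4 and 1, Rrp1b, was higher, and all passed the test (limma, Benjamini-Hochberg adjusted p under 0.05 over 20711 genes). Of all genes tested 39.8% passed, 28.1% lower and 11.7% higher. Among the 8753 genes with mean values in the range of the 35 (8.22 to 11.92), 50.7% were called lower and 12.9% higher. The median log2 difference was -0.57 for the 35 genes, against -0.17 for the genes in that range and -0.02 for all genes. For the same 34 genes all 6 week 4 arrays lay below all 6 week 3 arrays, a pattern held by 18% of all genes. Of the 808 probe sets 777 lay lower at week 4, so that 3.84% lay higher, against 36.5% of all probe sets kept.

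**Figure D1:**
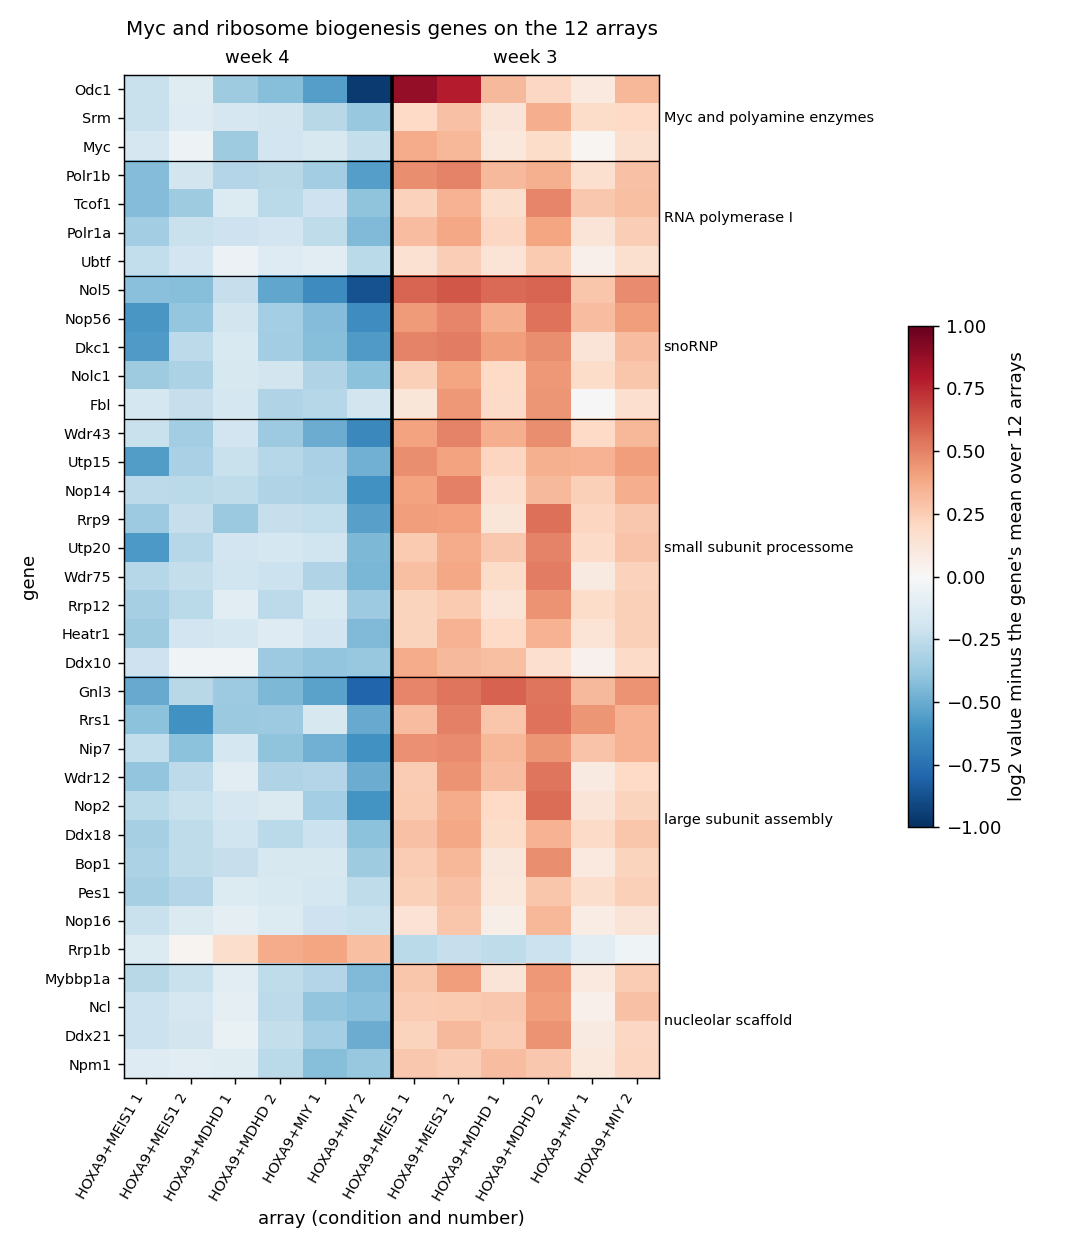
Log2 value minus the mean over the 12 arrays of each of the 35 genes (rows, grouped by role) on each array (columns, week 4 left and week 3 right, named by condition and array number). In 34 rows the 6 week 4 arrays lie below the 6 week 3 arrays, and the row of Rrp1b runs the other way.

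Myc itself, on 4 probe sets, had log2 values of 11.70 and 11.82 at week 4 in HOXA9+MEIS1, against 12.24 and 12.20 at week 3. In HOXA9+MDHD it had 11.51 and 11.67 at week 4, against 11.97 and 12.05 at week 3. In HOXA9+MIY it had 11.71 and 11.63 at week 4, against 11.89 and 12.03 at week 3. Every week 4 array was thus below every week 3 array, with the widest gap in HOXA9+MEIS1. The difference was log2 -0.39 ± 0.044 (standard error, 6 arrays against 6), 1.31-fold lower at week 4 with limma's adjusted p = 1.91e-05. All 4 probe sets lay lower, by 0.37 to 0.42.

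Odc1, ornithine decarboxylase, makes the first polyamine and is a classical Myc target. It had log2 values of 9.86 and 9.96 at week 4 in HOXA9+MEIS1, against 10.95 and 10.87 at week 3. In HOXA9+MDHD the values were 9.72 and 9.66 at week 4, against 10.40 and 10.28 at week 3, and in HOXA9+MIY 9.52 and 9.12 at week 4, against 10.18 and 10.41 at week 3. It fell 1.84-fold (log2 -0.88 ± 0.081, limma's adjusted p = 4.66e-06), with all 23 probe sets lower. Srm, spermidine synthase, fell 1.37-fold, by 0.45 on the log2 scale.

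The 4 genes of RNA polymerase I transcription fell by 0.34 to 0.70. They are Polr1b (log2 -0.70 ± 0.057) and Polr1a (-0.55 ± 0.054), the large subunits of the enzyme, Tcof1 (-0.60 ± 0.062), a nucleolar cofactor, and Ubtf (-0.34 ± 0.047), which binds the ribosomal DNA promoter. Ubtf had the smallest fall of all 34 genes.

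The largest fall of a single gene was that of Nol5. Nol5 and Nop56 encode partner proteins of the box C/D snoRNPs, which guide methylation of ribosomal RNA. Nol5 had log2 values of 9.67 and 9.67 at week 4 in HOXA9+MEIS1, against 10.67 and 10.71 at week 3. In HOXA9+MDHD it had 9.86 and 9.57 at week 4, against 10.66 and 10.67 at week 3, and in HOXA9+MIY 9.46 and 9.22 at week 4, against 10.37 and 10.56 at week 3. The lowest week 3 array, at 10.37, lay above the highest week 4 array, at 9.86. Nol5 fell 2.05-fold (log2 -1.03 ± 0.063, limma's adjusted p = 5.54e-07), with all 18 probe sets lower.

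Nop56 had log2 values of 10.71 and 10.91 at week 4 in HOXA9+MEIS1, against 11.72 and 11.78 at week 3. In HOXA9+MDHD it had 11.11 and 10.95 at week 4, against 11.65 and 11.84 at week 3, and in HOXA9+MIY 10.86 and 10.67 at week 4, against 11.60 and 11.71 at week 3. Its week 4 arrays were highest in HOXA9+MDHD, and it fell 1.80-fold (log2 -0.85 ± 0.059). Dkc1 encodes dyskerin, the pseudouridine synthase of the box H/ACA snoRNPs. It had log2 values of 9.80 and 10.11 at week 4 in HOXA9+MEIS1, against 10.86 and 10.88 at week 3. Its HOXA9+MDHD values were 10.21 and 10.02 at week 4, against 10.79 and 10.84 at week 3, and the HOXA9+MIY values were 9.95 and 9.80 at week 4, against 10.49 and 10.67 at week 3. Dkc1 fell 1.71-fold, by 0.77 on the log2 scale, and Nolc1, a chaperone of snoRNPs, fell by 0.58. Fbl, fibrillarin, the box C/D methyltransferase, fell by 0.45 but rests on 2 probe sets.

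Gnl3 encodes nucleostemin, a nucleolar GTPase abundant in progenitor cells. Its log2 values were 9.84 and 10.06 at week 4 in HOXA9+MEIS1, against 10.82 and 10.87 at week 3. In HOXA9+MDHD they were 9.97 and 9.89 at week 4, against 10.93 and 10.87 at week 3, and in HOXA9+MIY 9.80 and 9.55 at week 4, against 10.66 and 10.79 at week 3. Gnl3 fell 1.96-fold (log2 -0.97 ± 0.057, limma's adjusted p = 5.05e-07), with all 22 probe sets lower. Rrs1 in yeast helps the 5S particle join the large subunit. On 4 probe sets, it had log2 values of 7.81 and 7.61 at week 4 in HOXA9+MEIS1, against 8.52 and 8.72 at week 3. The HOXA9+MDHD values were 7.84 and 7.85 at week 4, against 8.49 and 8.76 at week 3, and the HOXA9+MIY values were 8.06 and 7.71 at week 4, against 8.66 and 8.57 at week 3. The weeks did not overlap, and Rrs1 fell by 0.81.

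Nip7, a factor of the maturing large subunit, had log2 values of 8.82 and 8.66 at week 4 in HOXA9+MEIS1, against 9.52 and 9.54 at week 3. Its HOXA9+MDHD values were 8.89 and 8.66 at week 4, against 9.39 and 9.50 at week 3, and the HOXA9+MIY values were 8.58 and 8.46 at week 4, against 9.35 and 9.41 at week 3. Week 4 lay below week 3 in every condition, and Nip7 fell by 0.78. The proteins of Pes1, Bop1 and Wdr12 form 1 complex of 60S assembly, and these genes fell by 0.44, 0.49 and 0.61. Nop2, a ribosomal RNA methyltransferase, Ddx18, a helicase, and Nop16 fell by 0.58, 0.56 and 0.34.

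Rrp1b was the exception. It encodes a nucleolar protein related to a yeast 60S factor and is also known as a partner of the transcription factor E2F1. Its log2 values were 10.14 and 10.31 at week 4 in HOXA9+MEIS1, against 10.01 and 10.06 at week 3. In HOXA9+MDHD they were 10.46 and 10.65 at week 4, against 10.03 and 10.07 at week 3, and in HOXA9+MIY 10.68 and 10.58 at week 4, against 10.17 and 10.24 at week 3. Within each condition both week 4 arrays were above both week 3 arrays, although a HOXA9+MEIS1 week 4 array lay below those of HOXA9+MIY at week 3. It rose 1.29-fold (log2 0.37 ± 0.060, limma's adjusted p = 2.79e-04), and 21 of its 22 probe sets lay higher.

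**Figure D2:**
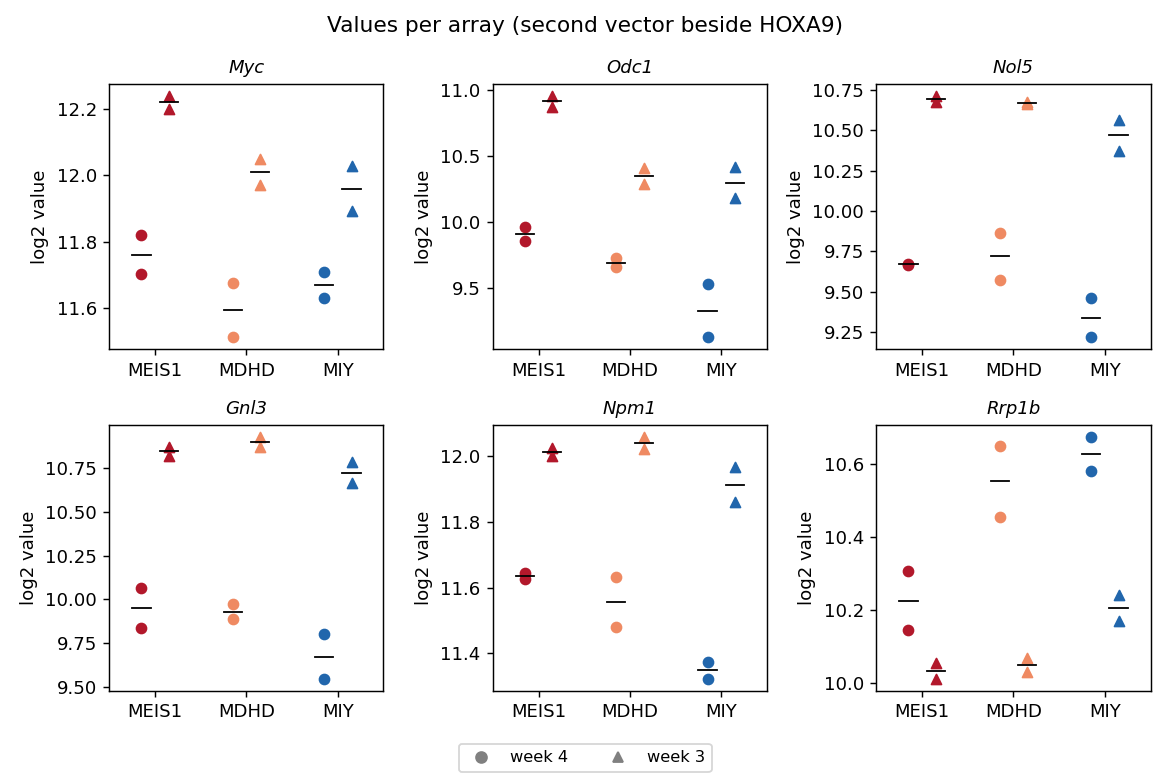
Log2 values of 6 of the genes on each array, by the second vector beside HOXA9 (circles week 4, triangles week 3, bars the mean of 2 arrays; the axes do not start at 0 and differ between panels). Circles lie below triangles in each condition for 5 genes and above them for Rrp1b.

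The 9 genes of the small subunit processome, the particle that cuts the precursor toward 40S subunits, all fell, by 0.47 (Ddx10) to 0.75 (Wdr43). Wdr43 had log2 values of 10.09 and 9.96 at week 4 in HOXA9+MEIS1, against 10.71 and 10.81 at week 3. The HOXA9+MDHD values were 10.12 and 9.95 at week 4, against 10.67 and 10.78 at week 3, and the HOXA9+MIY values were 9.82 and 9.67 at week 4, against 10.51 and 10.64 at week 3. Its HOXA9+MIY arrays were the lowest of each week. Of the other 7, Utp15 stood at log2 -0.73, Nop14 at -0.67, Rrp9, a protein of the U3 snoRNP, at -0.66, Utp20 at -0.63, Wdr75 at -0.57, Rrp12 at -0.50 and Heatr1 at -0.49. In Utp20 all 67 probe sets lay lower at week 4, by 0.29 to 1.09. Of the nucleolar scaffold and helicase genes, Mybbp1a, a Myb-binding protein, fell by 0.53, Ncl, nucleolin, by 0.52, Ddx21, a helicase, by 0.51 and Npm1, nucleophosmin, by 0.48.

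The week difference was present in each condition taken alone. In HOXA9+MEIS1, HOXA9+MDHD and HOXA9+MIY alike, 34 genes had both week 4 arrays below both week 3 arrays, and Rrp1b had both above. Of all genes 40.2%, 31.3% and 38.1%, in the same order, had both arrays below, and 23.4%, 19.1% and 24.4% both above. The median log2 differences of the 35 genes were -0.63, -0.52 and -0.56. Fitted on the arrays of 1 condition, 34 genes passed in HOXA9+MEIS1 (Rrp1b did not), 0 in HOXA9+MDHD and 35 in HOXA9+MIY, where 31.6%, 0.217% and 26.9% of all genes were called. In HOXA9+MDHD 45 genes of all passed, and the lowest adjusted p among the 35 was 0.0511 (limma). In the fit that tests whether a condition's difference changes between the weeks, 0 genes were called in each of the 3 pairs of conditions (0.00% of all genes, limma). Among the 35 genes 0, 0 and 3 had an unadjusted p under 0.05 there, for HOXA9+MEIS1 against HOXA9+MIY, HOXA9+MDHD against HOXA9+MIY and HOXA9+MEIS1 against HOXA9+MDHD, beside 1358, 1011 and 1557 of all genes.

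**Figure D3:**
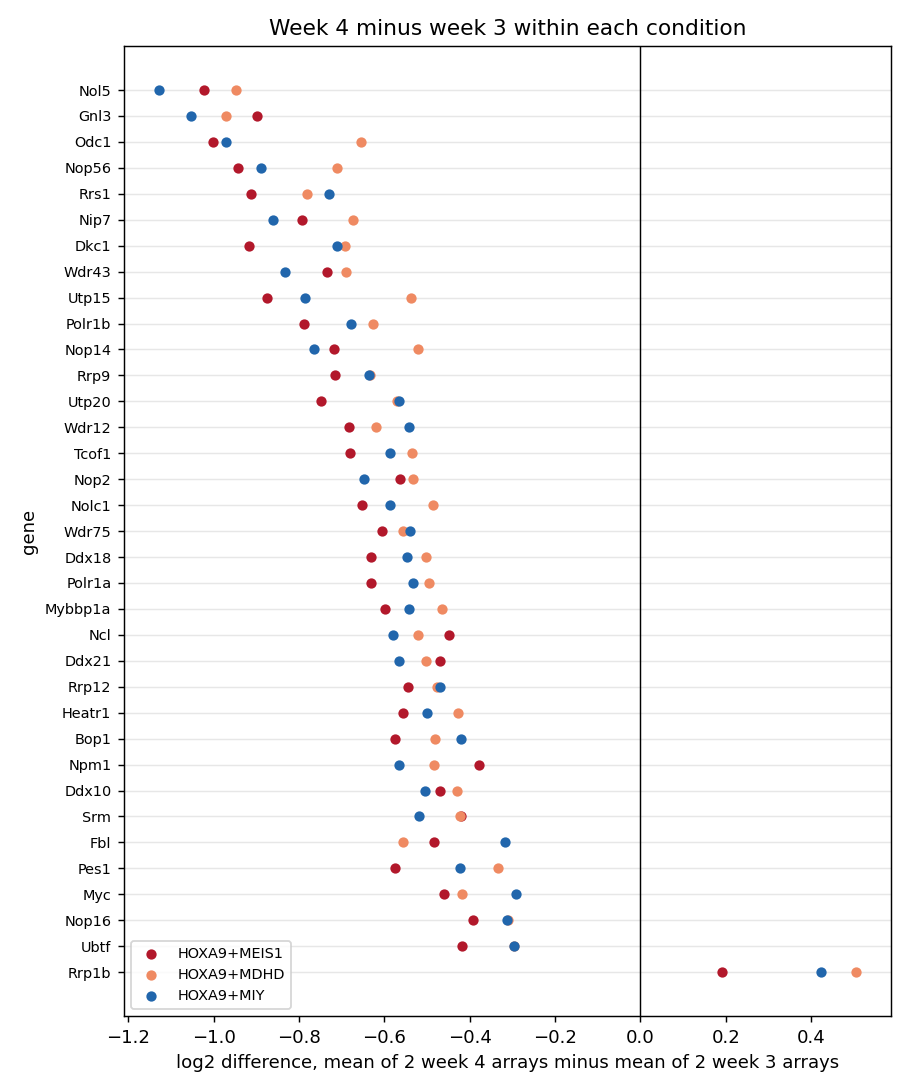
Log2 difference between the means of 2 week 4 and 2 week 3 arrays for each of the 35 genes within HOXA9+MEIS1, HOXA9+MDHD and HOXA9+MIY. All points but those of Rrp1b lie left of 0, and the farthest left is Nol5 in HOXA9+MEIS1 and HOXA9+MIY and Gnl3 in HOXA9+MDHD.

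Other values moved with the week. The spread of gene values on an array was smaller at week 4 (SD 1.39 to 1.45) than at week 3 (1.47 to 1.50), and forcing the arrays to 1 distribution took the median of the 35 genes to -0.41 with all 35 calls kept. The cell cycle list had 22 of 23 genes lower (median -0.44), with mean levels of 10.47 to 10.78 at week 4, against 11.00 to 11.08 at week 3. The late neutrophil list had 7 of 16 genes higher and none lower (median 0.54), with mean levels from 7.75 to 10.75 at week 4 and 7.94 to 10.07 at week 3. By condition, its levels were 7.75 to 8.14 at week 4, against 7.94 to 8.00 at week 3, in HOXA9+MEIS1, where the 35 genes had a median difference of -0.63. They were 9.37 to 10.13 at week 4, against 8.29 to 8.84 at week 3, in HOXA9+MDHD and 10.51 to 10.75 at week 4, against 9.88 to 10.07 at week 3, in HOXA9+MIY. Of all genes tested 28.1% were called lower and 11.7% higher. The mast cell list had 3 of 11 lower and the monocyte list 2 higher and 2 lower of 15. The stem and early progenitor list had 1 higher and 2 lower of 13. The calls in the mast cell, monocyte and progenitor lists were thus near or below the shares of all genes. Of 6 megakaryocyte markers 2 were higher, Ppbp at log2 1.49 and Pf4 at 0.75, and of 6 erythroid markers 1, Car1 at 0.36, while 0 genes passed in the B lymphoid, T and NK and stroma lists (0 at an unadjusted p under 0.05, limma). The parts of array spread, cell cycle and cell types in the week difference were not tested.

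The other listed genes of ribosome production and other Myc targets were also mostly lower at week 4. Of the other small subunit genes 33 of 34 fell and none rose (median -0.53), with Pno1 at log2 -1.01 and Tsr1 at -0.94. Of the other 60S assembly genes 30 of 31 fell (median -0.57), with Ppan at -1.0 and Nmd3, the export adaptor of the large subunit, at -0.89. All 7 genes of the list of H/ACA and C/D partners fell (median -0.68), Nhp2 by 0.87 and Gar1 by 0.74. One of them, Tbl3, is a small subunit processome gene and is counted in the small subunit list too. Of the other RNA polymerase I genes 9 of 12 fell (median -0.30), with Twistnb at -0.84 and Polr1e at -0.67, both subunits of the enzyme. Ttf1, which ends ribosomal DNA transcription, stood at 0.23 without passing. Among 24 other known Myc targets 21 fell and 1, Nampt, rose (median -0.44). Nme1, a nucleoside diphosphate kinase, was at -1.03, Mthfd2, a mitochondrial folate enzyme, at -0.997 and Cad, which starts pyrimidine synthesis, at -0.86.

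Polyamine genes beside Odc1 and Srm moved both ways. Amd1, which supplies the aminopropyl donor, fell by 0.78, Azin1, an inhibitor of the antizyme that removes ornithine decarboxylase, by 0.48 and Sms, spermine synthase, by 0.47. Sat1 and Smox, which break polyamines down, rose by log2 0.64 and 0.42. In all 5 of 7 genes fell and 2 rose.

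The Myc network list held Myc's partners and rivals for Max. Of 13 genes 3 rose and 5 fell at week 4 (median -0.13). Mxd1, which pairs with Max and opposes Myc and is known to rise as myeloid cells mature, rose 3.04-fold (log2 1.61 ± 0.084, limma's adjusted p = 3.14e-07). Mxi1, of the same family, rose by log2 0.82 ± 0.061 (limma's adjusted p = 1.39e-06). All 6 week 4 arrays lay above all 6 week 3 arrays for both, a pattern held by 4.09% of all genes. Max fell by 0.23 and Fbxw7, a ubiquitin ligase subunit that removes Myc protein, by 0.59, whereas Mycn stood at -0.30 and did not pass the test (limma's adjusted p = 0.141).

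**Figure D4:**
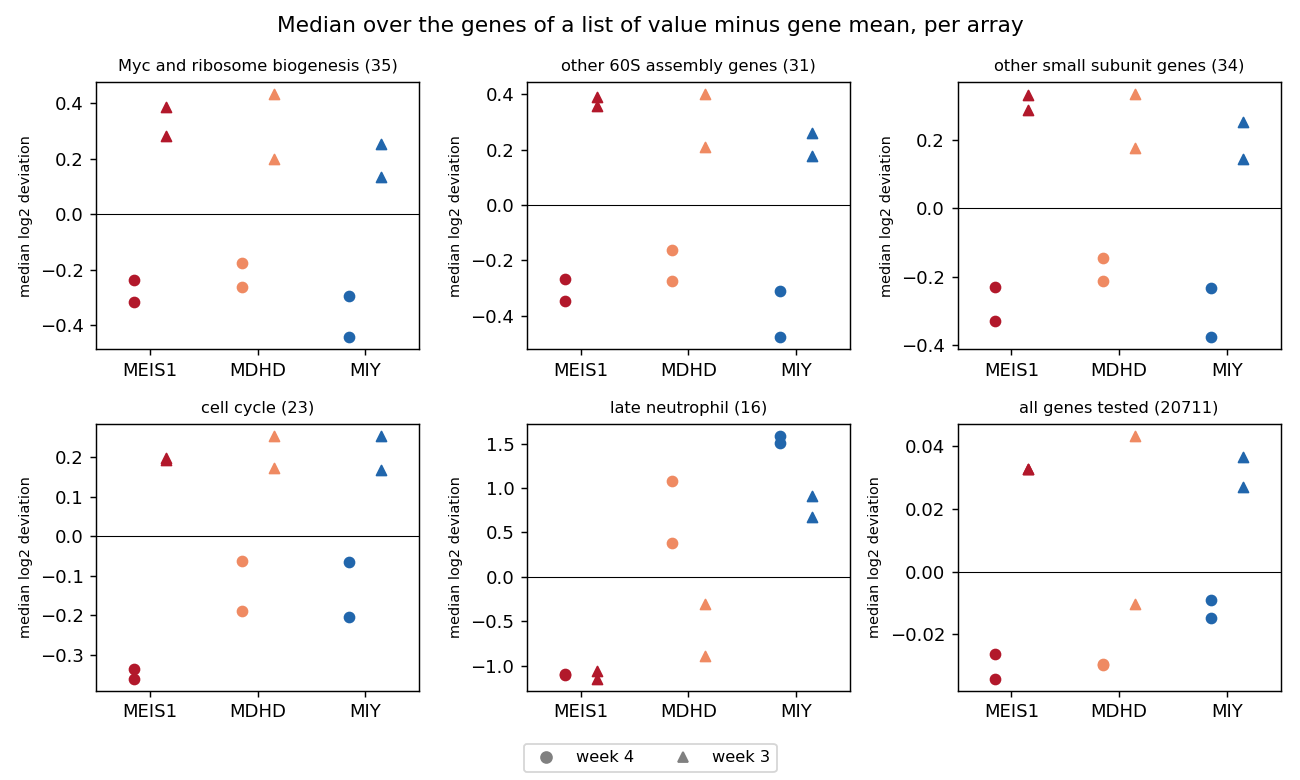
For 6 gene sets, the median over the genes of the log2 value minus the gene's mean over 12 arrays, on each array (circles week 4, triangles week 3; number of genes in brackets; the axes differ between panels). The 35 genes, the other 60S and small subunit genes and the cell cycle list lie lower at week 4 in every condition, while the late neutrophil list separates HOXA9+MEIS1 from HOXA9+MIY.

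The second comparison, HOXA9+MEIS1 against HOXA9+MIY, asks how cells with full-length MEIS1 beside HOXA9 differ from those with HOXA9 alone. Of the 35 genes 4 were higher with MEIS1, Odc1, Nol5, Wdr43 and Npm1, and 1, Rrp1b, was lower. Of all genes 5.25% were called higher and 5.52% lower, and among genes in the range of the 35 these shares were 8.35% and 8.11%. The log2 difference was above 0 for 29 of the 35 genes, with a median of 0.14 against -0.01 over all genes. Of their probe sets 76.9% lay higher with MEIS1, against 50.1% of all probe sets kept. No gene of the 35 had its 4 HOXA9+MEIS1 arrays wholly above or below its 4 HOXA9+MIY arrays (5.06% of all genes were above and 5.94% below). For the 34 genes whose week 4 arrays all lay below their week 3 arrays, such a separation was impossible. This count therefore tells nothing of a condition difference in them. Within each week, both HOXA9+MEIS1 arrays lay above both HOXA9+MIY arrays at both weeks for 12 of the 35 genes (12.5% of all genes) and below for Rrp1b (12.0%).

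Odc1 showed the largest difference. Its log2 values were 9.86 and 9.96 in HOXA9+MEIS1, against 9.52 and 9.12 in HOXA9+MIY, at week 4. At week 3 they were 10.95 and 10.87 in HOXA9+MEIS1, against 10.18 and 10.41 in HOXA9+MIY. Both HOXA9+MEIS1 arrays exceeded both HOXA9+MIY arrays at either week, and 22 of its 23 probe sets lay higher. Odc1 rose 1.52-fold (log2 0.60 ± 0.099, 95% interval 0.38 to 0.82, limma's adjusted p = 0.00181), by 0.58 at week 4 and 0.62 at week 3.

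The other calls were small. Nol5 rose by log2 0.28 ± 0.078 (1.21-fold, limma's adjusted p = 0.0381), Wdr43, a small subunit factor, by 0.23 ± 0.064 (adjusted p = 0.0346) and Npm1 by 0.19 ± 0.049 (adjusted p = 0.0237). Npm1 had log2 values of 11.63 and 11.64 in HOXA9+MEIS1 at week 4, against 11.32 and 11.37 in HOXA9+MIY. At week 3 it had 12.02 and 12.00 in HOXA9+MEIS1, against 11.86 and 11.97 in HOXA9+MIY, a narrower gap. Rrp1b fell 1.22-fold (log2 -0.29 ± 0.073, adjusted p = 0.0245), with week 4 values of 10.14 and 10.31 in HOXA9+MEIS1, against 10.68 and 10.58 in HOXA9+MIY. Myc differed by log2 0.18 ± 0.054 (95% interval 0.06 to 0.29, adjusted p = 0.0592) and did not pass, though all 4 of its probe sets lay higher with MEIS1, by 0.11 to 0.25. The genes of RNA polymerase I lay between -0.04 and 0.20, and none passed.

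These calls rested on the model and, except for Odc1, on single arrays. With no week term 0 of the 35 genes passed, but that fit counts the week difference as spread between arrays. On the week 4 arrays alone 0 passed and on the week 3 arrays alone 1, Odc1. Leaving out 1 array at a time, the number called lay between 1 (without HOXA9+MIY week 4 replicate 2 or HOXA9+MEIS1 week 4 replicate 2) and 7 (without HOXA9+MDHD week 4 replicate 1). It was 2 without HOXA9+MIY week 3 replicate 1 or week 4 replicate 1, 3 without either week 3 array of HOXA9+MEIS1 and 4 without HOXA9+MEIS1 week 4 replicate 1. Odc1 passed in each of these 12 fits. Npm1 lost its call with the mean of its probe sets (log2 0.13, limma's adjusted p = 0.156) and without trend (adjusted p = 0.0589), and Nol5 with no filter on dim probe sets (adjusted p = 0.0624). Myc passed with the mean of its probe sets, under median centring, with these groups fitted alone, and without the week 4 replicate 1 array of any 1 condition (limma's adjusted p of 0.0292 to 0.0463).

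Of the listed partners, Gnl2, the close relative of Gnl3 in 60S assembly, rose 1.61-fold with MEIS1 (log2 0.69 ± 0.083, limma's adjusted p = 1.84e-04), with all 4 arrays above those of HOXA9+MIY. With it 4 of 31 other 60S genes rose, among them Gtpbp4 at log2 0.42 and Nmd3 at 0.34, and none fell (median 0.10). Of the small subunit genes 5 of 34 rose and none fell (median 0.07), with Rcl1 at 0.36 and Tsr1 at 0.31. RNA polymerase I genes rose in 3 of 12, with Taf1d at 0.31 and Polr1c at 0.25. One snoRNP partner of 7, Naf1, was at 0.31, and 3 of 24 other Myc targets rose, Eif4e at 0.30, Shmt1 at 0.29 and Hnrnpa1 at 0.20. Among polyamine genes Sms rose by log2 0.42 ± 0.072 (limma's adjusted p = 0.00239), the 1 called of 7. No gene of 13 in the Myc network passed (limma), and 1 had an unadjusted p under 0.05 (4579 of all 20711 genes did).

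Markers of maturing cells moved with this comparison. In the late neutrophil list 15 of 16 genes were lower with MEIS1, and its mean level lay at 7.75 to 8.14 in HOXA9+MEIS1, against 9.88 to 10.75 in HOXA9+MIY. In the monocyte list 11 of 15 were lower and 1 higher, with mean levels of 8.54 to 8.79 in HOXA9+MEIS1, against 10.11 to 10.35 in HOXA9+MIY. Stem and early progenitor genes were higher in 7 of 13 and lower in 2, and 1 of the 7 is Meis1 itself, which the vector carried. Of the other cell type lists, stroma had 2 of 8 and erythroid 1 of 6 higher, and megakaryocyte had 2 of 6 and B lymphoid 1 of 6 lower. In the cell cycle list 0 of 23 passed (limma), 4 had an unadjusted p under 0.05, and the median was -0.09. The part of these cell types in the differences of the 35 genes was not tested.

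**Figure D5:**
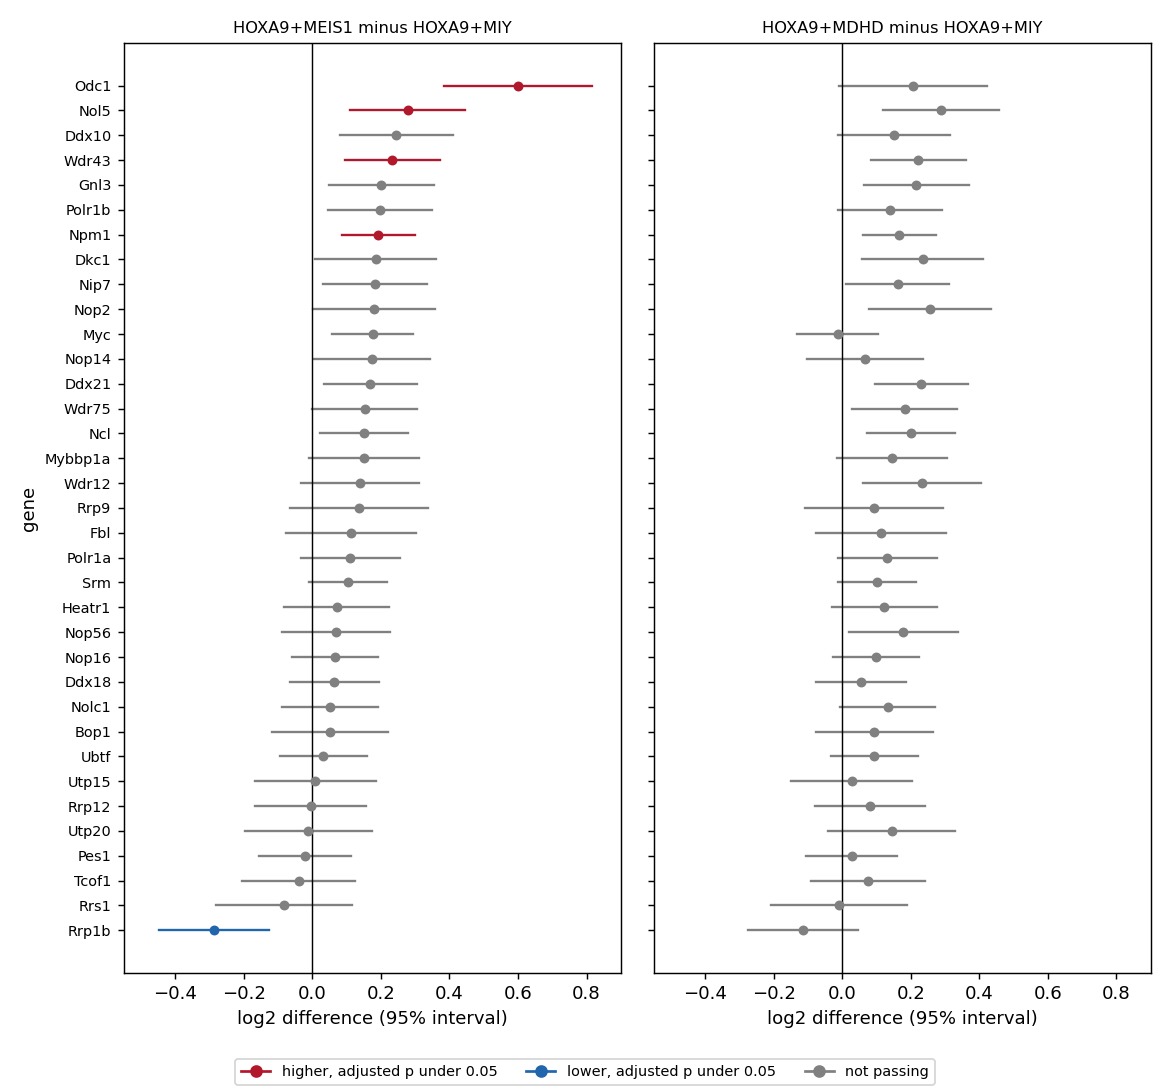
Log2 differences with 95% intervals for the 35 genes, HOXA9+MEIS1 minus HOXA9+MIY (left) and HOXA9+MDHD minus HOXA9+MIY (right), ordered by the left panel; both panels share the 4 HOXA9+MIY arrays. Coloured genes passed the test, 4 higher and 1 lower in the left panel and 0 in the right.

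The third comparison sets HOXA9+MDHD against HOXA9+MIY. Of the 35 genes 0 passed (limma), 12 had an unadjusted p under 0.05 (2780 of all 20711 genes did), and 1.97% of all genes were called (0.942% higher and 1.03% lower; in the range of the 35, 1.33% and 1.29%). No gene of the 35 had its 4 HOXA9+MDHD arrays wholly above or below its 4 HOXA9+MIY arrays, where 1.62% of all genes were above and 2.55% below. For 34 of the genes the week difference again made such a separation impossible. The log2 difference was above 0 for 32 genes, with a median of 0.13 against -0.01 over all genes, and 85.1% of the probe sets lay higher, against 50.6% of all probe sets kept. Both HOXA9+MDHD arrays lay above both HOXA9+MIY arrays at each week for 7 genes, Ddx21, Dkc1, Gnl3, Nol5, Npm1, Polr1b and Wdr43 (5.10% of all genes), and below for 0 (6.58%). The largest values were those of Nol5 (log2 0.29 ± 0.078, 95% interval 0.12 to 0.46, limma's adjusted p = 0.0924) and Nop2 (0.26 ± 0.081, adjusted p = 0.156). Odc1 stood at 0.21 ± 0.099 (-0.01 to 0.42, adjusted p = 0.403) and Myc at -0.01 ± 0.054 (-0.13 to 0.11).

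In HOXA9+MDHD the log2 values of Odc1 were 9.72 and 9.66 at week 4, against 9.52 and 9.12 in HOXA9+MIY. At week 3 they were 10.40 and 10.28 in HOXA9+MDHD, against 10.18 and 10.41 in HOXA9+MIY, so that the conditions overlapped at week 3 and not at week 4. Nop2 had log2 values of 9.66 and 9.68 in HOXA9+MDHD at week 4, against 9.48 and 9.23 in HOXA9+MIY. At week 3 it had 10.02 and 10.39 in HOXA9+MDHD, against 9.96 and 10.05 in HOXA9+MIY, and here too the conditions overlapped. Without HOXA9+MDHD week 4 replicate 2, 3 of the 35 genes passed, Ddx21, Nol5 and Npm1, and 987 of all genes in place of 409. In the other lists of ribosome, polyamine and Myc genes 0 passed (limma), with unadjusted p under 0.05 for 12 of 31 60S genes, 8 of 34 small subunit genes and 5 of 24 Myc targets. The late neutrophil list had 7 of 16 genes lower, with mean levels of 8.29 to 10.13 in HOXA9+MDHD, against 9.88 to 10.75 in HOXA9+MIY. The monocyte list had 2 of 15 genes higher and 3 lower, and the stem and early progenitor list 5 of 13 higher, Meis1 among them, and 1 lower. Stroma had 2 of 8 and erythroid 1 of 6 higher, and the mast cell list had 1 of 11 lower. The part of these cells in the differences was not tested.

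The last comparison, HOXA9+MEIS1 against HOXA9+MDHD, sets MEIS1 with its homeodomain against MEIS1 without it. Of the 35 genes 1, Odc1, was higher with full-length MEIS1 and none was lower, where 4.39% of all genes were called, 2.28% higher and 2.11% lower. In the range of the 35 genes these shares were 3.16% higher and 3.14% lower. The median of the 35 was -0.03, against 0.01 over all genes. Odc1 rose 1.31-fold (log2 0.39 ± 0.099, 95% interval 0.18 to 0.61, limma's adjusted p = 0.0456). On the week 4 arrays it differed by 0.22 and on the week 3 arrays by 0.57, a change between the weeks that was not called. The call was lost, with limma's adjusted p between 0.0560 and 0.138, without any 1 of the 4 HOXA9+MEIS1 arrays, without HOXA9+MDHD week 3 replicate 1, week 3 replicate 2 or week 4 replicate 2, or without HOXA9+MIY week 3 replicate 1. Myc differed by log2 0.19 ± 0.054 (95% interval 0.07 to 0.31, adjusted p = 0.0809). Myc and Odc1 were the 2 genes of the 35 with both HOXA9+MEIS1 arrays above both HOXA9+MDHD arrays at each week (6.81% of all genes), and 0 had both below (5.46%). No gene of the 35 had all 4 arrays above or below (2.68% and 2.54% of all genes), which the week difference made impossible for 34 of them.

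Nol5 differed between both MEIS1 forms by log2 -0.01 ± 0.078 (95% interval -0.18 to 0.16), Gnl3 by -0.02 ± 0.070 (-0.17 to 0.14) and Npm1 by 0.03 ± 0.049 (-0.08 to 0.13). For Rrp1b the value was -0.17 ± 0.073 (-0.33 to -0.01, adjusted p = 0.277). Gnl2 rose by log2 0.41 ± 0.083 (limma's adjusted p = 0.0155), the 1 called gene of 31 in the 60S list, with all HOXA9+MEIS1 arrays above all HOXA9+MDHD arrays. The late neutrophil list was lower in 9 of 16 genes and the monocyte list in 11 of 15, with 1 higher. The stem and early progenitor list had 1 of 13 higher and 1 lower, stroma 2 of 8 higher and megakaryocyte 1 of 6 lower, and the part of these cells in the differences was not tested.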

How the data were processed

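RNA of bone marrow cultures was measured on 12 Affymetrix mouse exon arrays. Per the submitters' processing notes the authors used RMA in Affymetrix Expression Console. The versions are not given in the sources used here. The deposited values are log2 per exon-level probe set, checked on their range (0 to 14.93) and array medians (6.26 to 6.30). Such values show relative, not absolute, amounts, and precision is limited by how few arrays there are.

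Of 1256831 probe sets 318760 named 1 gene symbol and were used; 6684 named several and 931387 none. Probe sets with a mean above 6.26, the 50th percentile of all, were kept. A median polish of its probe sets gave the value of each gene. limma 3.58.1 (R 4.3.3; lmFit, eBayes with trend, two-sided) was fitted to 20711 genes and the full set of 12 arrays, with terms for condition and week, and a second fit added their interaction. Benjamini-Hochberg adjustment ran over all genes, and the limit was 0.05. Errors after ± are standard errors of the log2 difference. The fit was tested on simulated data. Plots used Python 3.11.15, pandas 2.3.3 and matplotlib 3.10.9.

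The 35 genes and all lists were chosen with earlier results of these data known, so their directions are not independent evidence. From each further list the genes named are those with the largest changes among called genes, with a few named for their role after their values were seen. All 35 genes are named. The alternatives were filters, gene summaries, scalings, models, weeks taken apart and each array left out. The comparisons of conditions share arrays with each other. Array numbers 1 and 2 were not used as pairs in the main fit. Residual correlations of arrays matched by number across conditions were -0.316 to -0.0148, against -0.271 to 0.0481 for unmatched ones. These ranges overlap and cannot show whether the numbers paired the arrays.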

Additional observations from a re-analysis of the deposited data

How the results depend on the processing

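The 35 genes kept all 35 week calls under the filters, gene summaries, scalings, models and arrays left out, 34 on the HOXA9+MEIS1 and 35 on the HOXA9+MIY arrays alone, and under quantile normalization their median week difference was -0.414. On the HOXA9+MDHD arrays alone 45 genes and 0 of the 35 passed. HOXA9+MEIS1 against HOXA9+MIY called 8 of the 35 under quantile normalization, 0 of them and 902 genes with no week term, 1 and 917 at week 3 alone, and 0 and 809 at week 4 alone. HOXA9+MDHD against HOXA9+MIY called 1 of the 35 under quantile normalization. It called 35 genes in all with no week term, 147 with these groups alone, 236 at week 3 alone and 11 at week 4 alone. HOXA9+MEIS1 against HOXA9+MDHD called 0 of the 35 with no filter, with the mean of probe sets, without trend, with the replicate block, with no week term and on the week 4 arrays. It called 297 genes in all with no week term, 520 with these groups alone, 373 at week 3 alone and 210 at week 4 alone. The value of Myc in HOXA9+MDHD against HOXA9+MIY, log2 -0.01, turned to 0.0055 under median centring, 0.0497 at week 3 alone, 0.0202 without HOXA9+MIY week 4 replicate 1 and 0.0230 without HOXA9+MDHD week 4 replicate 1, and it was -0.0567 without HOXA9+MIY week 3 replicate 1. With 1 array left out at a time, 1 to 7 of the 35 and 1628 to 2530 genes passed in HOXA9+MEIS1 against HOXA9+MIY (median 0.09 to 0.15), 0 to 3 and 139 to 987 in HOXA9+MDHD against HOXA9+MIY (median 0.11 to 0.16), and 0 to 1 and 602 to 1007 in HOXA9+MEIS1 against HOXA9+MDHD (median -0.08 to -0.01). For the weeks 35 and 7546 to 8482 passed (median -0.61 to -0.54). The replicate block, with array numbers as pairs, called 2026, 332 and 765 genes in these 3 pairs of conditions and 7998 for the weeks, with 5, 0, 0 and 35 of the 35. It ended the call of Odc1 in the last pair (adjusted p = 0.0741), and the cause was not tested for any of these changes. Of the values of single genes under these settings 384 kept direction and side of the threshold, 64 lost a call, 8 gained one and 4 turned. Probe sets near the filter level and genes on few probe sets, such as Fbl, are limited by signal over background.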
